A study of Mus musculus with 12 samples.

Results

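The signalling lymphocyte activation molecule (SLAM) receptors, their adaptor SAP and the kinase Fyn were followed as 8 genes out of 19937 named on the array. These were Sh2d1a, which encodes SAP, Fyn, and the receptor genes Slamf6, Slamf1, Cd84, Ly9, Cd48 and Slamf7. They were taken by name, as members of the receptor family and its first signalling step, with earlier results of these data known. Each was represented by 1 probe set annotated to that gene alone. The gene lists and marker lists used below were also chosen with those results known. RNA was measured on 12 Affymetrix mouse gene arrays, 3 for each of 4 sorted groups of CD4+ T cells taken from Peyer's patches, which are follicles of lymphoid tissue in the wall of the small intestine. The mice of all 4 groups were IL-21eGFP animals, whose green fluorescent protein (GFP) stands for activity of the interleukin 21 gene, and the sort was made from cells negative for MHC II and Epcam. The groups were GFP+ CXCR5+PD1+ T follicular helper cells (GFP+ Tfh), GFP- CXCR5+PD1+ cells (GFP- Tfh), GFP- CXCR5+PD1- cells and GFP- CXCR5-PD1- cells. The sort protocol in the labels describes the other 3 populations but not CXCR5+PD1- cells, whose gate is known here from their titles and marker labels alone. The submitters' stated aim was to compare GFP+ with GFP- Tfh cells. The labels used here give no age and no source animal for each replicate, so p-values cover only the spread between these samples. Part of that spread may be technical.

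SLAM receptors are membrane proteins of the immunoglobulin superfamily through which lymphocytes bind one another, and most of them recognise a copy of themselves on the facing cell. Their tails carry tyrosine switch motifs. In T cells these motifs bind SAP, a small adaptor made almost wholly of an SH2 domain, and SAP recruits Fyn. Mice that lack SAP make poor germinal centres because their T cells do not hold stable contacts with B cells, and loss of SAP in people causes X-linked lymphoproliferative disease.

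Values are log2 expression on the RMA scale, on which the median of all probe sets was 6.34 to 6.45 per array. Levels are compared between groups within a gene, since different probe sets share no common scale. Cxcr5, the receptor used in the sort, averaged 8.95 in GFP+ Tfh and 8.21 in GFP- Tfh, against 5.61 for CXCR5+PD1- cells and 5.71 for CXCR5-PD1- cells. The CXCR5+PD1- gate thus held no more Cxcr5 RNA than the CXCR5-PD1- gate, although the labels call all 4 groups T follicular helper cells. The GFP+ arrays are CXCR5+PD1+ by title but CXCR5- and PD1- in their other labels, and were grouped by title. Replicate 3 of every group had Xist at 10.65 to 11.25, against 4.87 to 5.49 in the other replicates, so the replicates differed in sex. The GFP+ Tfh arrays scattered more about their group mean, by 0.287 to 0.405 (root mean square over the genes tested), against 0.163 to 0.204 on the other arrays.

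SAP and 2 of the genes it works with separated the Tfh gates from the PD1- gates. Sh2d1a was 3.22-fold higher in both Tfh gates together than in both PD1- gates together, Slamf6 was 1.91-fold higher and Fyn was 1.8-fold higher. The other 5 genes, Slamf1, Cd84, Ly9, Cd48 and Slamf7, did not pass the test in that comparison, and none of the 8 was lower. The threshold was an adjusted p of 0.05 from limma with Benjamini-Hochberg adjustment over 11240 genes. Of those genes 5.05% passed as higher and 5.33% as lower, and the groups did not overlap in 3.49% with the Tfh gates higher. The 8 genes had a median difference of 0.21, against -0.02 over all genes tested. Since they were chosen with earlier results of these data known, these figures are a description. In bulk RNA, fewer cells of a type and less RNA per cell cannot be told apart.

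**Figure D1:**
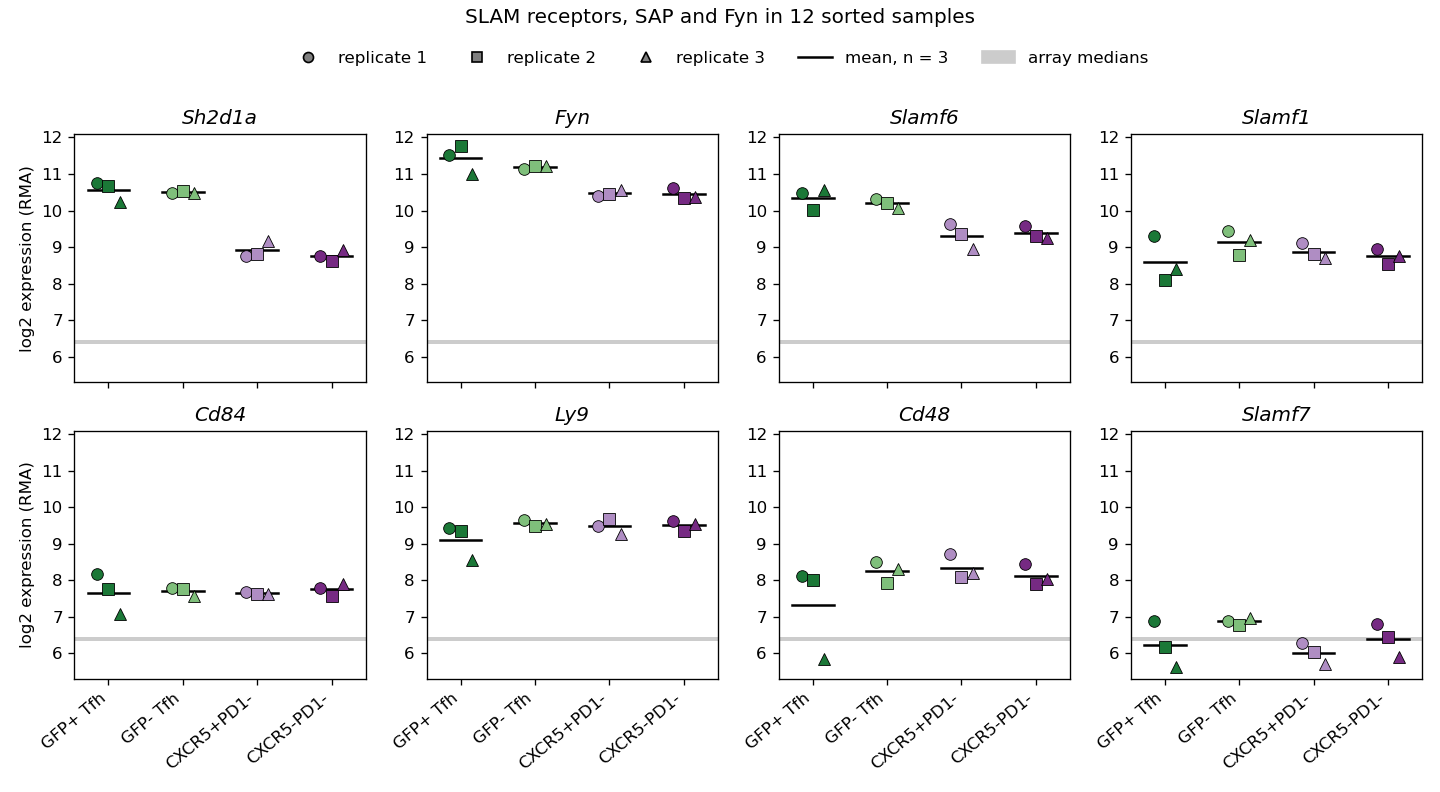
Log2 expression (RMA) of the 8 genes on all 12 arrays, 1 panel per gene, with groups along the horizontal axis; symbols are replicates, bars are means of n = 3 and the grey band is the range of array medians (6.34 to 6.45). Sh2d1a, Fyn and Slamf6 lay higher in every Tfh sample than in every PD1- sample, and Cd48 in GFP+ Tfh replicate 3 lay at 5.84, below the band.

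Sh2d1a, the X-linked SAP gene, had the widest gap of the 8. It read 10.76, 10.66 and 10.23 in GFP+ Tfh replicates 1 to 3 and 10.48, 10.53 and 10.49 in GFP- Tfh, against 8.75, 8.82 and 9.16 in CXCR5+PD1- cells and 8.76, 8.62 and 8.92 for CXCR5-PD1- cells. Every Tfh sample was above every PD1- sample, with the lowest Tfh value at 10.23 and the highest PD1- value at 9.16. The difference of both Tfh gates over both PD1- gates was 1.69 ± 0.11 (SE, 95% interval 1.44 to 1.93, adjusted p = 3.18e-06 by limma), which ranked 22 by p among all genes tested. Taken within a replicate number it was 1.87, 1.87 and 1.32 for replicates 1, 2 and 3. The smallest of these gaps of an X-linked gene was that of replicate 3, the one with Xist. Fyn, which is not X-linked, also had its smallest gap in replicate 3 (0.64), while Slamf6 had its largest there (1.22). Whether the gap differed by sex was not tested.

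Fyn, the Src family kinase that SAP brings to the receptors, read 11.53, 11.76 and 10.99 in GFP+ Tfh and 11.14, 11.22 and 11.21 in GFP- Tfh. It read 10.41, 10.45 and 10.56 in CXCR5+PD1- cells and 10.63, 10.34 and 10.37 for CXCR5-PD1- cells. The Tfh and PD1- samples did not overlap, although GFP+ Tfh replicate 3 stood well below the other GFP+ samples. The difference of both Tfh gates over both PD1- gates was 0.85 ± 0.12 (SE, 95% interval 0.58 to 1.12, adjusted p = 0.000825 by limma), and within replicates 1, 2 and 3 it was 0.82, 1.10 and 0.64.

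Slamf6 encodes Ly108, a receptor that binds itself and is the SLAM receptor best known for delivering either a helping or an inhibitory signal according to whether SAP is present in mouse Tfh cells. It read 10.47, 10.02 and 10.56 in GFP+ Tfh and 10.32, 10.20 and 10.08 in GFP- Tfh. In the PD1- gates it read 9.63, 9.35 and 8.94 in CXCR5+PD1- cells and 9.57, 9.31 and 9.25 for CXCR5-PD1- cells. The lowest Tfh value was 10.02 and the highest PD1- value 9.63, so these groups did not overlap either. The difference was 0.93 ± 0.13 (SE, 95% interval 0.64 to 1.23, adjusted p = 0.000858 by limma), and within replicates 1, 2 and 3 it was 0.80, 0.78 and 1.22. Of the 6 receptor genes, Slamf6 was the 1 that passed.

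The same 3 genes passed in each Tfh gate against each PD1- gate. These 4 comparisons share arrays with each other and with the comparison above, so they are not independent of it. The calls of Sh2d1a held under all alternatives there, while those of Fyn and Slamf6 did not. In GFP+ Tfh over CXCR5-PD1- cells, where 2.45% of genes tested were higher, the differences were 1.78 ± 0.16 for Sh2d1a, 0.98 ± 0.17 for Fyn and 0.97 ± 0.19 for Slamf6 (SE; adjusted p = 5.27e-05, 0.00568 and 0.0105 by limma). In GFP+ Tfh over CXCR5+PD1- cells (2.58% of genes higher) they were 1.64 ± 0.16, 0.95 ± 0.17 and 1.04 ± 0.19 for Sh2d1a, Fyn and Slamf6 (adjusted p = 0.000114, 0.00729 and 0.0077 by limma). When only the compared groups were fitted, Fyn and Slamf6 missed the threshold in GFP+ Tfh over CXCR5-PD1- cells (adjusted p = 0.0805 and 0.0511 by limma) and over CXCR5+PD1- cells (0.0754 and 0.0753), which left Sh2d1a as the 1 gene of the 8. In GFP- Tfh the gaps of Fyn and Slamf6 were closer to the threshold. Over CXCR5-PD1- cells (2.22% of genes higher) GFP- Tfh differed by 1.74 ± 0.16 in Sh2d1a, 0.75 ± 0.17 in Fyn and 0.82 ± 0.19 in Slamf6 (adjusted p = 0.000137, 0.0331 and 0.0334 by limma). Over CXCR5+PD1- cells (2.33% of genes higher) the differences were 1.59 ± 0.16, 0.72 ± 0.17 and 0.89 ± 0.19 for Sh2d1a, Fyn and Slamf6 (adjusted p = 0.000251, 0.0408 and 0.0225 by limma). Fyn missed the threshold there with a replicate block (adjusted p = 0.0517 by limma) and without the filter on low values (0.0529). Without 1 array, Fyn or Slamf6 or both missed the threshold in each GFP- Tfh comparison, whichever array of the compared groups was left out, so that 1 or 2 of the 8 genes passed there. Slamf6 in GFP+ Tfh over CXCR5-PD1- cells missed it without CXCR5-PD1- replicate 3 (adjusted p = 0.0546 by limma) and with 1 weight per group (0.0711).

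Several SLAM family genes are also used by B cells, plasma cells and natural killer cells, whose markers were measured on the same arrays. The summed linear level of 7 B cell markers was 367 to 436 in GFP+ Tfh and 368 to 415 in GFP- Tfh, against 371 to 379 in CXCR5+PD1- cells and 330 to 406 for CXCR5-PD1- cells. Of these 3 were tested and Pax5 was higher, by 0.30 ± 0.07 (adjusted p = 0.0193 by limma), at 6.04 to 6.59 on all arrays, while Cd79a, Ms4a1, Blnk and Cr2 did not pass the filter. For 9 markers of CD8, natural killer and natural killer T cells, the sum was 612 to 679 in GFP+ Tfh and 740 to 774 in GFP- Tfh, against 749 to 983 in CXCR5+PD1- cells and 778 to 1190 for CXCR5-PD1- cells. Of the 6 tested, Cd8b1 and Prf1 were lower in both Tfh gates together, by -0.46 ± 0.13 and -0.62 ± 0.12 (adjusted p = 0.0478 and 0.00535 by limma). Germinal centre B and plasma cell markers (7) summed to 747 to 1430 in GFP+ Tfh and 772 to 991 in GFP- Tfh, against 748 to 957 in CXCR5+PD1- cells and 772 to 870 for CXCR5-PD1- cells. Among these 7, Fas ran from 8.07 to 9.64 in GFP+ Tfh, while Mybl1, Jchain, Sdc1 and Tnfrsf17 did not pass the filter. None of the 3 germinal centre B and plasma cell markers tested passed in both Tfh gates over both PD1- gates. Nor did any of 4 myeloid markers or the 1 epithelial marker tested there. Myeloid and dendritic cell markers (9) summed to 718 to 873 in GFP+ Tfh and 651 to 725 in GFP- Tfh, against 633 to 824 in CXCR5+PD1- cells and 634 to 1030 for CXCR5-PD1- cells. Epithelial markers (5) summed to 282 to 389 in GFP+ Tfh and 308 to 319 in GFP- Tfh, against 282 to 319 in CXCR5+PD1- cells and 291 to 320 for CXCR5-PD1- cells. All 6 CD4 T cell markers lay above the array median on every array, and Cd4 and Cd3g were higher in both Tfh gates together, by 0.53 ± 0.10 and 0.32 ± 0.09 (adjusted p = 0.00457 and 0.047 by limma). All 6 Tfh markers (Cxcr5, Pdcd1, Bcl6, Il21, Icos and Tox2) were higher. Their sums were 7450 to 8530 in GFP+ Tfh and 6280 to 8120 in GFP- Tfh, against 2250 to 2640 in CXCR5+PD1- cells and 2110 to 2340 for CXCR5-PD1- cells. CXCR5 and PD-1 chose the cells and Il21 is the reporter's gene, so the direction of these markers is not independent of the sort. In single gates, Lyz2, a myeloid marker, was higher in GFP+ Tfh than in CXCR5+PD1- cells, by 1.48 ± 0.38 (adjusted p = 0.0447 by limma), with means of 7.08 and 5.60. Set over CXCR5-PD1- cells, GFP+ Tfh had higher Pax5 (0.47 ± 0.10) and lower Prf1 (-0.70 ± 0.17), and GFP- Tfh had lower Cd8b1 (-0.82 ± 0.19; adjusted p = 0.0171, 0.0322 and 0.0329 by limma). The part of such cells in the differences of Sh2d1a, Fyn and Slamf6 was not tested.

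The start sites of the 2 genes beside SAP that rose, Slamf6 and Fyn, are shown with that of Slamf1, another receptor gene, which did not pass. They set genes with and without a difference next to each other. Each window is 300 bases from RefSeq (GRCm38.p6), with 250 bases before and 50 after the start, on the plus strand at chr1:171917212-171917511 for Slamf6, chr10:39369549-39369848 for Fyn and chr1:171766882-171767181 for Slamf1. Capitals mark matches to the motifs searched.
Slamf6: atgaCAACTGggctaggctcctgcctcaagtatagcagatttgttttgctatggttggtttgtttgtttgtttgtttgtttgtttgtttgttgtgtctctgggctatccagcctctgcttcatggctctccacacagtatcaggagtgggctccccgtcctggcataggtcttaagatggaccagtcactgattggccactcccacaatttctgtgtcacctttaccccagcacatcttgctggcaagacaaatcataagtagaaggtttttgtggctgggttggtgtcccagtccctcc
Fyn: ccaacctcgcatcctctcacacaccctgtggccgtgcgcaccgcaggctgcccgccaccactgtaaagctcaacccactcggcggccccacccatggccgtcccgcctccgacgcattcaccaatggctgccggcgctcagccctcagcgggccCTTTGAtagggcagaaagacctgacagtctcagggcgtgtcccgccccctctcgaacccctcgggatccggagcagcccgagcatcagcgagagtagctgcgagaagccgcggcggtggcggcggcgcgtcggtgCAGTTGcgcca
Slamf1: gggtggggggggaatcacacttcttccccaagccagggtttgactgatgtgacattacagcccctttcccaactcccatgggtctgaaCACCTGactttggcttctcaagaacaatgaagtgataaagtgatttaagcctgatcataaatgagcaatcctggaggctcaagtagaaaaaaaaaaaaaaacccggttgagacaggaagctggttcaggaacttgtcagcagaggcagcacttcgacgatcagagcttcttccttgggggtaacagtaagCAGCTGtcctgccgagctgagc
The motifs, searched on both strands, were the E-box CANNTG, AP-1 TGANTCA, ETS CCGGAA, STAT TTCNNNGAA and TCF CTTTGA, and no matches in these 3 windows overlap. Counted from the start site, Slamf6 held 1 E-box at position -246, Slamf1 held E-boxes at positions -162 and 29, and Fyn held a TCF match at -96 and an E-box at 40. An E-box occurs in 72.3% of the 32851 windows of the table and was in all 6 of the windows matched to the 8 genes. AP-1 was in 7.81% of all windows and in those of Slamf7 and Cd84, ETS in 14.9% and in that of Cd48, TCF in 16.0% and in those of Fyn and Cd48, and STAT in 8.3% and in none of the 6. G and C made up 48.3% of the Slamf6 window, 49.0% of that of Slamf1 and 69.0% of that of Fyn, against a median of 52.7% over all windows. A match is a description of letters and does not show a site in use.

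The 6 receptor genes lie in 1 cluster on chromosome 1, in the order Ly9, Slamf7, Cd48, Slamf1, Cd84 and Slamf6 by RefSeq, with Tma7-ps between Cd48 and Slamf1 as the other coding entry, while Fyn lies on chromosome 10. Slamf6, at 1 end of the cluster, passed the test and its neighbours did not. Slamf1, the founding member of the family, which binds itself and is also the measles virus receptor in people, read 9.30, 8.09 and 8.41 in GFP+ Tfh and 9.44, 8.79 and 9.20 in GFP- Tfh. It read 9.11, 8.81 and 8.70 in CXCR5+PD1- cells and 8.95, 8.54 and 8.75 for CXCR5-PD1- cells. The GFP+ Tfh samples spanned the PD1- values and went below them. The difference of both Tfh gates over both PD1- gates was 0.06 ± 0.19 (SE, 95% interval -0.37 to 0.49, adjusted p = 0.92 by limma).

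Cd84, another self-binding receptor, which takes part in lasting contact between T and B cells in mice, read 8.17, 7.75 and 7.08 in GFP+ Tfh and 7.80, 7.76 and 7.58 in GFP- Tfh, against 7.67, 7.62 and 7.63 in CXCR5+PD1- cells and 7.78, 7.58 and 7.91 for CXCR5-PD1- cells. All groups overlapped, and GFP+ Tfh held both the highest and the lowest sample. Its difference was -0.01 ± 0.15 (SE, 95% interval -0.35 to 0.33, adjusted p = 0.987 by limma).

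Ly9, also called CD229, a self-binding receptor of T and B cells, read 9.42, 9.34 and 8.57 in GFP+ Tfh and 9.64, 9.50 and 9.53 in GFP- Tfh. Values were 9.48, 9.67 and 9.28 for CXCR5+PD1- cells and 9.62, 9.35 and 9.54 for CXCR5-PD1- cells. Apart from GFP+ Tfh replicate 3 the samples lay close together. The difference of both Tfh gates over both PD1- gates was -0.16 ± 0.14 (SE, 95% interval -0.47 to 0.16, adjusted p = 0.631 by limma).

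Cd48 encodes a lipid-anchored member with no tail of its own, which is the ligand of CD2 and of the receptor CD244. It read 8.11, 8.0 and 5.84 in GFP+ Tfh and 8.50, 7.93 and 8.32 in GFP- Tfh, against 8.73, 8.08 and 8.21 in CXCR5+PD1- cells and 8.45, 7.90 and 8.04 for CXCR5-PD1- cells. A single sample, GFP+ Tfh replicate 3, stood apart at 0.60 below its array's median, and the rest overlapped. The difference of both Tfh gates over both PD1- gates was -0.45 ± 0.34 (SE, 95% interval -1.19 to 0.29, adjusted p = 0.535 by limma), and it was -0.083 without that sample.

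Slamf7, a self-binding receptor best known on natural killer and plasma cells, was above the array median on 6 of 12 arrays. It read 6.90, 6.17 and 5.63 in GFP+ Tfh and 6.90, 6.78 and 6.98 in GFP- Tfh, against 6.29, 6.04 and 5.71 in CXCR5+PD1- cells and 6.80, 6.46 and 5.90 for CXCR5-PD1- cells. The GFP- Tfh samples were the tightest of the 4 groups. Both Tfh gates over both PD1- gates differed by 0.36 ± 0.21 (SE, 95% interval -0.10 to 0.82, adjusted p = 0.384 by limma). In GFP- Tfh over CXCR5+PD1- cells the samples did not overlap, as in 12.5% of genes tested in that direction. That difference was 0.88 ± 0.30 (SE, 95% interval 0.22 to 1.53) and did not pass the threshold (adjusted p = 0.179 by limma), which it passed with 1 weight per array, 1 weight per group, a replicate block or a fit of those groups alone (adjusted p = 0.0245, 0.036, 0.0486 and 0.0129 by limma).

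Set over single PD1- gates, the other 5 genes gave differences whose intervals reached across 0, apart from Slamf7 in GFP- Tfh over CXCR5+PD1- cells. In GFP- Tfh, which had the tighter arrays, Ly9 differed by 0.05 ± 0.20 from CXCR5-PD1- cells (SE, 95% interval -0.39 to 0.50) and by 0.08 ± 0.20 from CXCR5+PD1- cells (-0.36 to 0.52). Cd84 differed by -0.04 ± 0.22 and 0.07 ± 0.22 in the same comparisons, and Cd48 by 0.12 ± 0.48 and -0.09 ± 0.48. The intervals of Cd48 are the widest of the 8 genes, since 1 estimate of the spread per gene is shared by all groups and takes in GFP+ Tfh replicate 3. Slamf1 in GFP- Tfh stood 0.40 ± 0.28 over CXCR5-PD1- cells (SE, 95% interval -0.21 to 1) and 0.27 ± 0.28 over CXCR5+PD1- cells, while in GFP+ Tfh the differences were -0.15 ± 0.28 and -0.28 ± 0.28. The GFP+ Tfh mean of Slamf1 was the lowest of the 4 groups and the GFP- Tfh mean the highest, at 8.60 ± 0.63 and 9.14 ± 0.33 (SD, n = 3 each), which did not differ by the test.

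None of the 8 genes differed between GFP+ and GFP- Tfh cells by the test, in which 0.0445% of genes tested passed (5 genes). At an unadjusted p under 0.05 stood 1 of the 8, against 828 of the 11240 genes tested. Il21, the reporter's own gene, did not pass either, at 0.63 ± 0.56 (SE, adjusted p = 0.824 by limma). It averaged 10.60 in GFP+ Tfh and 9.96 in GFP- Tfh, against 6.50 for CXCR5+PD1- cells and 6.64 for CXCR5-PD1- cells. GFP+ and GFP- Tfh are thus gates by the reporter, not Tfh cells with and without Il21 RNA. The 3 genes higher in the Tfh gates did not pass here. Their differences of GFP+ over GFP- Tfh were 0.05 ± 0.16 for Sh2d1a (SE, 95% interval -0.30 to 0.40), 0.24 ± 0.17 for Fyn (-0.14 to 0.61) and 0.15 ± 0.19 for Slamf6 (-0.27 to 0.57), with adjusted p = 0.957, 0.784 and 0.881 by limma. For Sh2d1a the interval allows a difference of at most 0.40 either way, less than the lower bound of 1.44 on its gap to the PD1- gates. The interval of Slamf6 ended at 0.57, under its bound of 0.64. That of Fyn reached 0.61, above its bound of 0.58, so likeness of the Tfh gates is not shown for Fyn.

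The remaining genes had negative differences of GFP+ over GFP- Tfh, none past the threshold. Cd84 differed by -0.04 ± 0.22, Ly9 by -0.45 ± 0.20, Slamf1 by -0.54 ± 0.28, Slamf7 by -0.65 ± 0.30 and Cd48 by -0.94 ± 0.48 (SE; adjusted p = 0.972, 0.668, 0.683, 0.674 and 0.685 by limma). Ly9, with an unadjusted p of 0.0463, was the 1 gene of the 8 whose GFP+ samples all lay below its GFP- samples, as in 5.65% of genes tested. Over all 8 genes the median difference was -0.25, against -0.02 over all genes tested.

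**Figure D2:**
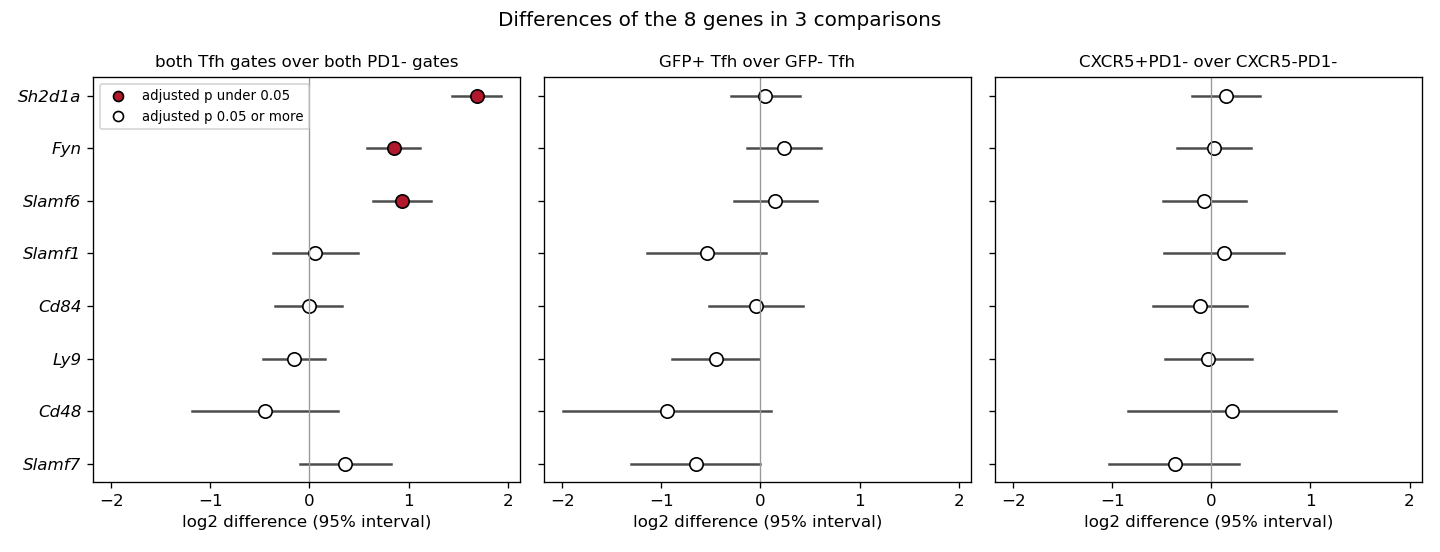
Log2 differences with 95% intervals for the 8 genes (rows) in 3 comparisons (panels); filled points have an adjusted p under 0.05. Sh2d1a (1.69), Slamf6 (0.93) and Fyn (0.85) stand clear of 0 in both Tfh gates over both PD1- gates, and no gene is filled in GFP+ over GFP- Tfh or in CXCR5+PD1- over CXCR5-PD1-.

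The sizes of these negative values depended on single GFP+ arrays. Within replicates 1, 2 and 3 the difference of GFP+ over GFP- Tfh was -0.40, 0.06 and -2.49 for Cd48, -0.23, -0.16 and -0.96 for Ly9, and 0, -0.62 and -1.34 for Slamf7. GFP+ Tfh replicate 3 was the lowest GFP+ array for 6 of the 8 genes, against 36.5% of all genes tested. Slamf1, lowest in replicate 2, and Slamf6, highest in replicate 3, were the exceptions. The same count was found in another group, where CXCR5-PD1- replicate 2 was lowest for 6 of the 8 genes (35.4% of all genes tested). Without GFP+ Tfh replicate 3 the differences were -0.201 for Cd48, -0.18 for Ly9, -0.353 for Slamf7, -0.448 for Slamf1 and 0.248 for Cd84. Those of Sh2d1a, Fyn and Slamf6 were then 0.206, 0.451 and 0.047, and none of the 8 passed. Without GFP+ Tfh replicate 1 the differences were larger, at -1.335 for Cd48, -0.606 for Ly9, -0.987 for Slamf7, -0.896 for Slamf1 and -0.297 for Cd84 (adjusted p 0.0601 to 0.368 by limma), and again none passed. Slamf1, Cd48, Ly9 and Slamf7 thus kept their sign without either array, while Cd84 turned positive without replicate 3. Over the 16 alternatives for Slamf1 the difference ran from -0.949 to -0.289, so its size depended on the samples and settings used. Cd48 and Ly9 moved together over the 12 arrays (Pearson r = 0.904), which include GFP+ Tfh replicate 3. Of genes tested, 1.52% had a larger spread within groups than Cd48.

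**Figure D3:**
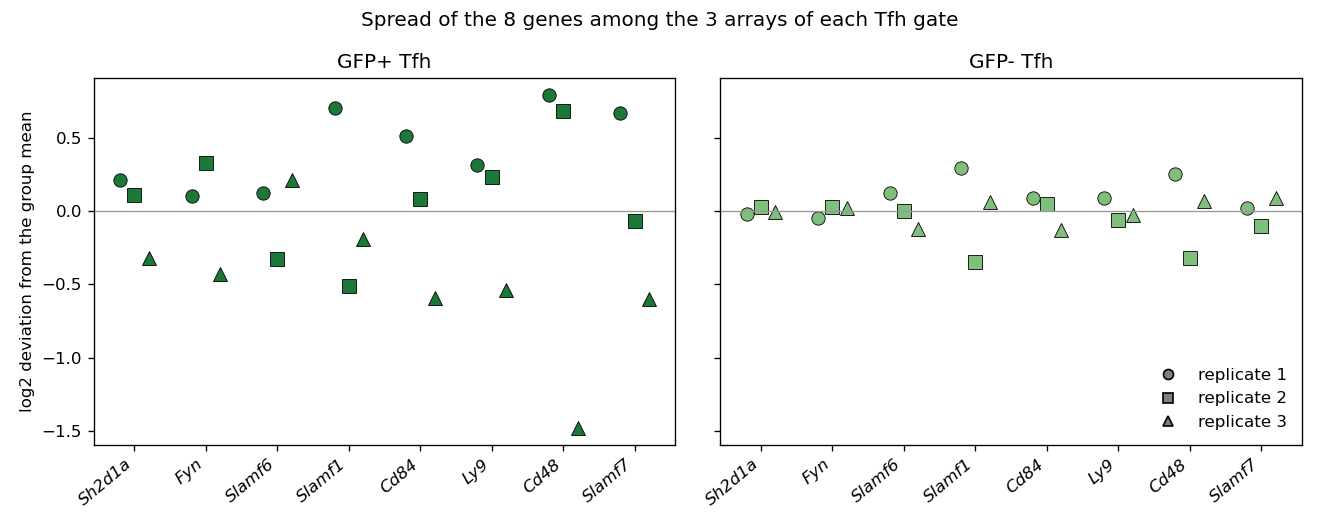
Deviation of each array from its group mean (log2) for the 8 genes, in GFP+ Tfh (left panel) and GFP- Tfh (right panel), with symbols for replicates. In GFP+ Tfh, replicate 3 lies lowest for 6 of the 8 genes, and the GFP- Tfh points stay closer to 0.

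Between the PD1- gates no difference passed for any gene on the array. CXCR5+PD1- over CXCR5-PD1- cells gave 0 genes by limma (0% of genes tested), with 137 at an unadjusted p under 0.05, of which 0 were among the 8. Sh2d1a averaged 8.91 ± 0.22 in CXCR5+PD1- cells and 8.76 ± 0.15 for CXCR5-PD1- cells (SD, n = 3 each), and Slamf6 9.31 ± 0.34 and 9.38 ± 0.17 in the same groups. The differences of the 8 genes ran from -0.37 for Slamf7 to 0.21 for Cd48.

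The order of the groups was thus alike for Sh2d1a and Fyn, with GFP+ Tfh, GFP- Tfh, CXCR5+PD1- and CXCR5-PD1- cells in falling order. Sh2d1a averaged 10.55 ± 0.28, 10.50 ± 0.03, 8.91 ± 0.22 and 8.76 ± 0.15 in that order, and Fyn 11.43 ± 0.39, 11.19 ± 0.04, 10.47 ± 0.08 and 10.44 ± 0.16 (SD, n = 3 each). Slamf6 followed with the PD1- gates the other way round, at 10.35 ± 0.29 in GFP+ Tfh and 10.20 ± 0.12 in GFP- Tfh, against 9.31 ± 0.34 in CXCR5+PD1- cells and 9.38 ± 0.17 for CXCR5-PD1- cells. For these 3 genes the step between the Tfh gates and the PD1- gates exceeded the spread, and neighbours within either pair did not differ by the test. Over the 12 arrays Sh2d1a correlated with Fyn (Pearson r = 0.944) and with Slamf6 (r = 0.849), which describes arrays that share the same split into groups.

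The genes whose pattern over the 12 arrays was most like that of Sh2d1a, among 10549 compared by Pearson r, were Hif1a (0.981), Slc9a9 (0.98), Cd44 (0.98), Tox (0.977) and Stx11 (0.977). After the group means were taken out, these r were 0.185 to 0.541, so most of the likeness lay between the groups. For Slamf6 they were Sec14l1 (0.975), Pde2a (0.971), Fkbp5 (0.969), Lag3 (0.968) and Casp1 (0.964), with 0.821 to 0.95 left after the group means were taken out. For Slamf1 the nearest genes were Zfp280b (0.902), Atp2a3 (0.901), Rnasek (0.884), Zbtb8os (0.88) and Eloc (0.879). After the group means were taken out, these r were 0.867 to 0.947, so the likeness to Slamf1 lay largely between arrays of the same group.

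Of 6 further family and partner genes, Cd2, a T cell receptor for CD48, and Slamf9 passed the filter on low values, and neither passed the test in any of the 7 comparisons. Cd2 averaged 11.63 in GFP+ Tfh and 11.79 in GFP- Tfh, against 11.73 for CXCR5+PD1- cells and 11.75 for CXCR5-PD1- cells, a difference of -0.03 ± 0.08 for both Tfh gates over both PD1- gates. Slamf8, Cd244a, Sh2d1b1 and Sh2d1b2 did not pass the filter. Sh2d1b1 and Sh2d1b2, which encode the SAP relatives of natural killer and myeloid cells, averaged 3.93 to 4.05 in the 4 groups.

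Signalling partners of SAP and Fyn, which include regulators of Src family kinases as well as downstream enzymes and adaptors, changed in part. Of 18 on the array 16 were tested, and in both Tfh gates over both PD1- gates 5 were higher and 1 lower, where 5.05% of all genes tested were higher and 5.33% lower. Their median difference was 0.10, against -0.02 over all genes tested. Ptpn11, the phosphatase SHP-2, averaged 9.74 ± 0.54 in GFP+ Tfh and 9.72 ± 0.40 in GFP- Tfh, against 8.21 ± 0.21 in CXCR5+PD1- cells and 8.27 ± 0.01 for CXCR5-PD1- cells (SD, n = 3 each). It was higher by 1.49 ± 0.18 (SE, adjusted p = 0.000247 by limma). Malt1, a protease of the complex that links antigen receptors to NF-kappaB, was higher by 0.99 ± 0.08 (adjusted p = 1.1e-05 by limma). Rasa1, a Ras GTPase activating protein, was higher by 0.55 ± 0.11, Inpp5d, the lipid phosphatase SHIP-1, by 0.37 ± 0.10, and Ptprc, the phosphatase CD45, by 0.26 ± 0.07 (adjusted p = 0.00631, 0.0346 and 0.0375 by limma). Dok2, an adaptor that dampens receptor signalling, fell by 0.45 on the log2 scale (SE 0.09, adjusted p = 0.00904 by limma). SHP-2, SHIP-1 and Ras GTPase activating proteins are also known as brakes on receptor signalling, so the higher genes are not all forward signalling genes.

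In single gates the signalling partners gave 2 higher and 1 lower when GFP+ Tfh, and likewise when GFP- Tfh, were set over CXCR5-PD1- cells. Of all genes tested, 2.45% were higher and 3.75% lower with GFP+ Tfh there, and 2.22% higher and 1.6% lower with GFP- Tfh. The partners gave 3 higher and 0 lower in either Tfh gate over CXCR5+PD1- cells, where 2.58% of all genes were higher and 3.31% lower with GFP+ Tfh, and 2.33% higher and 1.42% lower with GFP- Tfh. None passed in GFP+ over GFP- Tfh or between the PD1- gates.

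Among 8 genes of T cell help that have been tied to SAP, 5 were higher in both Tfh gates over both PD1- gates (5.05% of all genes tested) and 0 were lower, and the median difference was 1.34. They were Il21 (3.71 ± 0.40), Il4 (3.46 ± 0.49), both cytokines of T cell help, Bcl6 (1.59 ± 0.11) and Maf (1.40 ± 0.16), transcription factors of Tfh cells, and the costimulatory receptor gene Icos (1.28 ± 0.10). Gata3 (0.10 ± 0.15), Cd40lg (0.36 ± 0.13) and Zbtb16 (0.30 ± 0.10) did not pass. Il21, Bcl6 and Icos are also among the Tfh markers above, so the lists share genes. Il21 is the reporter's gene and Cxcr5 and PD-1 chose the cells, so the direction of the helper list is not independent of the sort. The count was also 5 higher and 0 lower in each Tfh gate against each PD1- gate, where 2.22% to 2.58% of all genes were higher. It was 0 in GFP+ over GFP- Tfh and also between the PD1- gates.

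**Figure D4:**
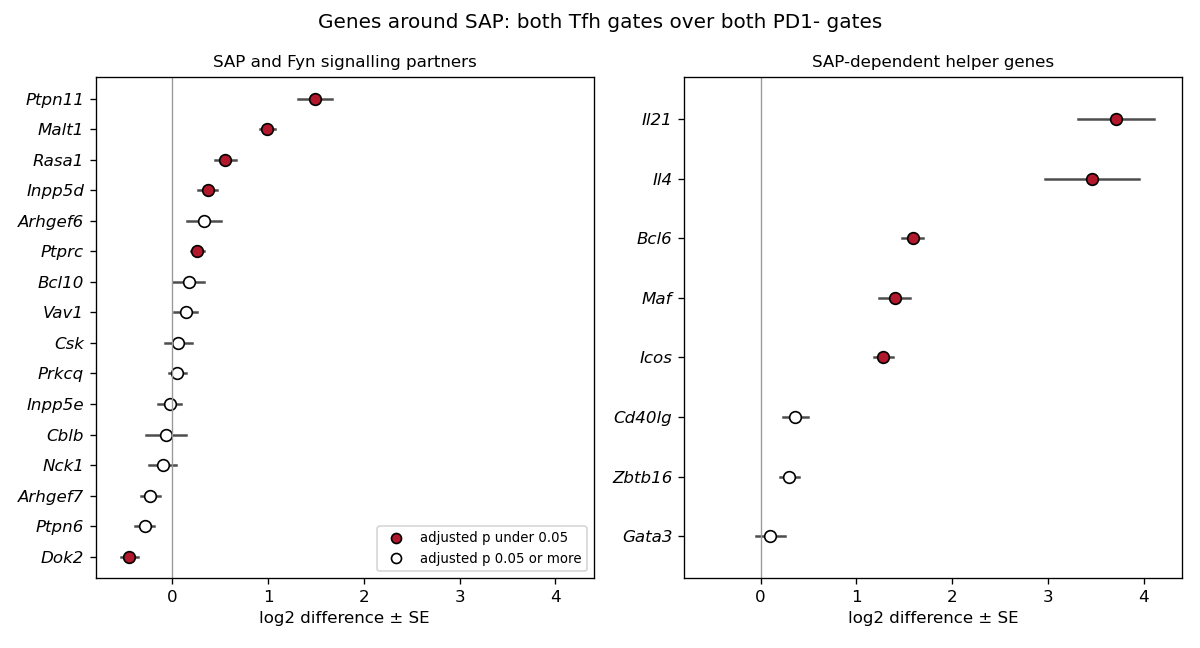
Log2 difference ± SE of both Tfh gates over both PD1- gates for 16 signalling partners of SAP and Fyn (left panel) and 8 SAP-dependent helper genes (right panel); filled points have an adjusted p under 0.05. Ptpn11 (1.49) and Malt1 (0.99) lead the partners, Dok2 (-0.45) is the filled point below 0, and Il21 (3.71) and Il4 (3.46) lead the helper genes.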

How the data were processed

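The deposited table holds log2 values of 34760 probe sets on 12 arrays. The submitters' processing notes name RMA and oligo for it. No source used here gives the genome build. RMA equalises the arrays' distributions and compresses low signals, so differences near the array median (Slamf7, Cd48 in 1 sample) may be understated. Per the labels' protocols, total RNA was amplified with a whole-transcript kit. All columns were matched to samples by title (0 unmatched).

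The platform annotation named 21640 probe sets with 1 symbol, of which 21553 were matched to RefSeq (GRCm38.p6) by gene ID and 87 were left under an older symbol. A further 1321 carried several symbols and 11799 no name here. This gave 19937 genes, with the probe set of the highest mean where a gene had several. Testing required a value over the array median on at least 3 arrays, which 11240 genes met, all 8 members among them, and 8697 did not.

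The 7 comparisons were contrasts in 1 model of all 12 arrays (limma 3.58.1, R 4.3.3) with 8 residual degrees of freedom and 11.5 after moderation, at a Benjamini-Hochberg adjusted p of 0.05. The code was tested on simulated data. The 12 arrays have no read depth, and their number limits the precision. Same-numbered samples deviated together in CXCR5+PD1- over CXCR5-PD1- cells (correlations 0.210 to 0.353), where a replicate block gave 0 genes too; what the numbers mark is not in the labels. Elsewhere at least 1 pair lay below 0.1.

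The members and the 3 gene lists and marker lists were chosen with earlier results of these data known. All 8 members are named, as are list genes past the threshold in both Tfh gates over both PD1- gates, the further SLAM family genes, and the 5 genes nearest by correlation to Sh2d1a, Slamf6 and Slamf1. Pax5, Cd8b1, Prf1, Cd3g, Lyz2, Fas, Tox2, the helper genes that did not pass and the markers below the filter were named after their values were seen. Alternatives changed the filter, moderation, weights, normalisation, block, probe set rule and samples in the fit.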

Additional observations from a re-analysis of the deposited data

How the results depend on the processing

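In both Tfh gates over both PD1- gates, none of 21 alternative settings changed a call of the 8 genes. Sh2d1a ranged from 1.64 to 1.77 (adjusted p 2.2e-07 to 2.85e-05 by limma), Slamf6 from 0.82 to 1.02 (0.000509 to 0.00362) and Fyn from 0.77 to 0.96 (2.19e-05 to 0.00344). Over all 7 comparisons the 8 genes gave 929 values under alternatives. Of these 896 stayed on their side of the threshold, among them 35 uncalled values that changed sign (such as Cd84 in both Tfh gates over both PD1- gates, 0.139 without GFP+ Tfh replicate 3), 29 lost the call, 4 gained it (all Slamf7 in GFP- Tfh over CXCR5+PD1- cells) and 0 called values reversed.

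The number of the 8 genes past the threshold, 3 as reported, was 1 in GFP+ Tfh over CXCR5-PD1- and over CXCR5+PD1- cells when only the groups compared were fitted. It was 1 to 2 without single arrays in GFP- Tfh over CXCR5-PD1- and over CXCR5+PD1- cells, fits with fewer samples, and 2 to 3 in GFP+ Tfh over CXCR5-PD1- cells. With the replicate block, Fyn lost its call in GFP- Tfh over CXCR5+PD1- cells (adjusted p = 0.0517 by limma) and Slamf7 gained one there (0.0486), and no other call of the 8 genes changed. Without a filter Fyn also lost it (0.0529). Slamf6 in GFP+ Tfh over CXCR5-PD1- cells lost its call with 1 weight per group (0.0711) and with the groups alone (0.0511). Slamf7 did not pass the stricter filter.

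Counts over all genes moved more, and the cause was not tested. With 1 weight per array, 1981 genes passed in both Tfh gates over both PD1- gates (1167 as reported; 883 to 1495 without single arrays, 1495 without GFP+ Tfh replicate 3). With 1 weight per array, 1 weight per group and the groups alone, GFP+ Tfh over CXCR5-PD1- cells gave 1411, 314 and 255 genes (697 as reported, 348 to 1147 without single arrays). GFP+ Tfh over CXCR5+PD1- cells gave 1437, 331 and 234 (662, 337 to 1005). GFP- Tfh over CXCR5-PD1- cells gave 912, 791 and 665 (429, 228 to 326), and GFP- Tfh over CXCR5+PD1- cells gave 1042, 843 and 776 (422, 214 to 319). GFP+ over GFP- Tfh gave 95, 3 and 0 (5, 3 to 237, the highest without GFP+ Tfh replicate 1), and CXCR5+PD1- over CXCR5-PD1- cells gave 0 with single arrays left out. The array weights of GFP+ Tfh replicates 1, 2 and 3 were 0.266, 1.87 and 0.226.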
